A study of Mus musculus with 2 samples.

Results

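The 38 genes described here make up a part of the interferon system of mouse common myeloid progenitors (CMP), the bone marrow cells that give rise to granulocytes, monocytes, red cells and megakaryocytes. They are 4 receptor chains, the transcription factor gene Stat2, and 33 genes that interferon is known to switch on. All 38 were found by symbol among 43346 mouse genes in the gene tables, and the rule that names them uses no measured value. The libraries, replicate 1 and replicate 2, are total RNA-seq of primary CMP from adult male C57BL/6J mice of 5 to 6 weeks. For each, 100 cells were pooled, RNA above 200 nucleotides was kept and spike-in RNA was added. They form 1 group, the labels name no treatment, and the biosamples differ while the donor identifier is shared. The labels call them biological replicates 1 and 2, each with technical replicate number 1. Differences between the libraries are therefore differences between 2 small pools of like cells, and n = 2 throughout, where the spread may be technical. The gene table summed to 28916263 expected counts for replicate 1 and to 26426710 for replicate 2, and a gene with 0 counts could have stood at most at 0.104 and 0.114 per 1000000, the level of 3 counts, which covers counting error alone.

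Interferons are secreted proteins that cells release on sensing viral nucleic acid. Type I interferons bind a receptor of the chains IFNAR1 and IFNAR2, and interferon gamma binds IFNGR1 and IFNGR2. Kinases of the JAK family then activate transcription factors. A complex that holds STAT2 and IRF9 binds the interferon-stimulated response element (ISRE), and the interferon gamma signal acts through the gamma-activated site (GAS). In blood progenitors and stem cells, some interferon-stimulated genes are known to be transcribed without added interferon.

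Promoter sequence is shown first for genes at both ends of the level range, since the ISRE is what type I interferon signalling acts on. Each stretch is RefSeq sequence of GRCm38.p6, read 5′ to 3′ on the strand of the gene. Capitals mark matches to the ISRE core, which is GAAA, 2 bases of any kind and GAAA again, and which reads TTTC, 2 bases and TTTC where the match is on the opposite strand. Overlapping matches run together. Ifitm2 and Ifitm3 were among the 3 highest of the 38 genes by mean level, Oas1a was in the middle, Isg15 was read mainly in replicate 1, and Ifit3 and Rsad2 were at or near 0. Cmpk2 is the neighbour of Rsad2 and was read in both libraries.
Ifitm2, chr7:140955962-140956111, minus strand, the 150 bases before the start: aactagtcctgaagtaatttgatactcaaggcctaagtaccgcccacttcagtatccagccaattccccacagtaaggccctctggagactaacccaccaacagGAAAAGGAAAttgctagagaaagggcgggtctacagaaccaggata
Ifitm3, chr7:141010715-141010744, minus strand, the first 30 bases from the start: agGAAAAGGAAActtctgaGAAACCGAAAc
Oas1a, chr5:120907526-120907675, minus strand, the 150 bases before the start: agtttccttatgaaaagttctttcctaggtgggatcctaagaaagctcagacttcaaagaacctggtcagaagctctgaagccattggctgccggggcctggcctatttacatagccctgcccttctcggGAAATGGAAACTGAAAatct
Isg15, chr4:156200819-156200968, minus strand, the 150 bases before the start: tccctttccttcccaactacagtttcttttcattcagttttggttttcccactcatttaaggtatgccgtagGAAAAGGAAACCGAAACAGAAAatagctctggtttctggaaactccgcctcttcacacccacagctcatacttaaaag
Ifit3, chr19:34583329-34583478, plus strand, bases -200 to -51 from the start: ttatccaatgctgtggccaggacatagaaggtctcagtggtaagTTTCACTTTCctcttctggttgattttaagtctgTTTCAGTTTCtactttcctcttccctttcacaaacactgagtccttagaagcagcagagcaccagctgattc
Rsad2, chr12:26456453-26456602, minus strand, the 150 bases before the start: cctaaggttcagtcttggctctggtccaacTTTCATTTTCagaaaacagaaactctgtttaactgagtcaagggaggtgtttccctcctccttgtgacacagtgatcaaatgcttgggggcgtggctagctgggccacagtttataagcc
Cmpk2, chr12:26469065-26469214, plus strand, the 150 bases before the start: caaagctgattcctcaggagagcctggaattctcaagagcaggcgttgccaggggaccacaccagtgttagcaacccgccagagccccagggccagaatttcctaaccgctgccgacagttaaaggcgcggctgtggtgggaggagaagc

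A 300-base promoter window, 250 bases before to 50 after the start, was found for 30 of the 38 genes. Ifi27, Mx1, Mx2, Oas2, Parp14, Parp9, Usp18 and Zbp1 had none. An ISRE core lay in the windows of 12 of these 30 genes (40.0%), on either strand, against 1079 of 27025 genes with a window (3.99%; 3.44% of all windows). The 12 genes were Bst2, Ddx58, Ifih1, Ifit1, Ifit3, Ifitm2, Ifitm3, Isg15, Oas1a, Oas3, Rsad2 and Stat2. Isg15 held 3 overlapping cores in 1 run, and Oas1a, Bst2, Ifit1, Ifit3 and Ifitm3 held 2 each. A GAS core, TTC and GAA with 3 bases of any kind between them, lay in the windows of 11 of the 30 genes (36.7%), against 9.55% of all genes with a window. The receptor genes Ifnar1 and Ifnar2 held a GAS core and no ISRE core, while Ifngr1 and Ifngr2 held neither within the window. These matches are letters in a window and no measure of binding.

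Presence of the core went with no single level in CMP. Of the 23 windowed genes that were read at 1 TPM (transcripts per 1000000, a level corrected for transcript length) or more in both libraries, 7 held an ISRE core, against 5 of the 7 that were not. The 12 genes with the core had median levels of 6.55 TPM in replicate 1 and 6.52 in replicate 2, and the 18 without it 8.87 and 11.5 TPM. Among genes with the core, levels spanned from 0 for Ifit3 to 233 TPM for Ifitm2. Genes of this set with and without the core thus overlapped over nearly the whole range.

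**Figure D1:**
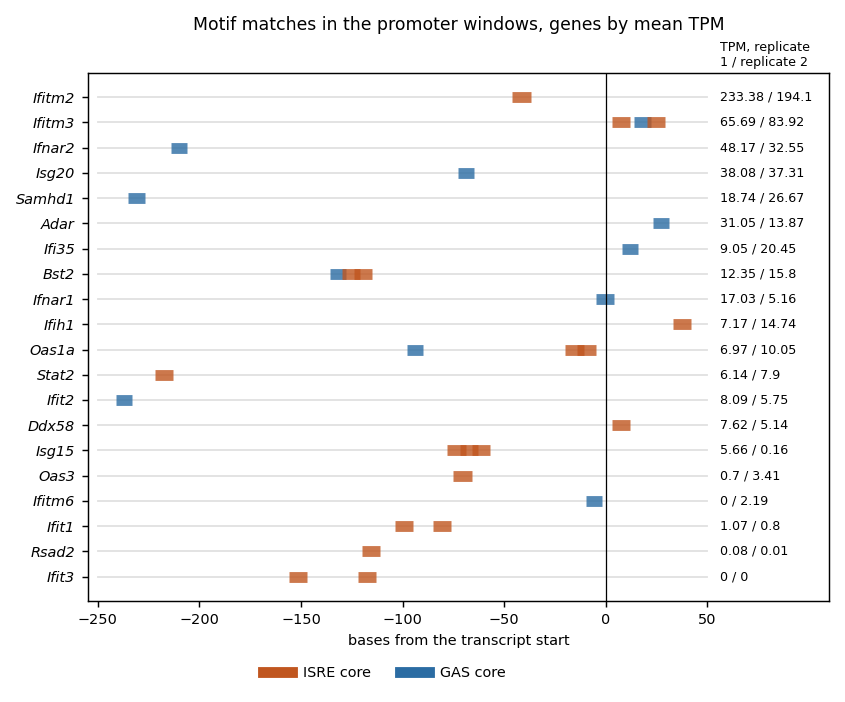
Matches to the ISRE core and the GAS core in the promoter windows of the interferon genes that hold either, placed by bases from the transcript start (horizontal axis) and ordered by mean TPM from top to bottom. The TPM in replicate 1 and replicate 2 stand at the right, and ISRE cores occur both at the top (Ifitm2, 233.38 and 194.1 TPM) and at the bottom (Ifit3, 0 and 0 TPM).

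Most of the 38 genes were transcribed in CMP. At a threshold of 1 TPM, 29 of 38 (76.3%) were read in both libraries and are called constitutive here, against 9627 of 21461 nuclear protein-coding genes (44.9%). Isg15 and Ifit1 passed in replicate 1 alone, Oasl2, Oas3, Zbp1 and Ifitm6 in replicate 2 alone, and Mx1, Rsad2 and Ifit3 in neither. The median level of the 38 genes was 7.26 TPM in replicate 1 and 7.53 TPM in replicate 2, against 0.320 and 0.560 TPM over all nuclear protein-coding genes. Among genes read in both libraries the order turned round, with medians of 8.68 and 10.9 TPM for the 29 interferon genes and 13.2 and 13.5 TPM for all 9627. The interferon genes were thus more often read than protein-coding genes at large, and those that were read were not at high levels as a group. In a pool, fewer cells that transcribe a gene and less RNA per cell cannot be told apart.

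**Figure D2:**
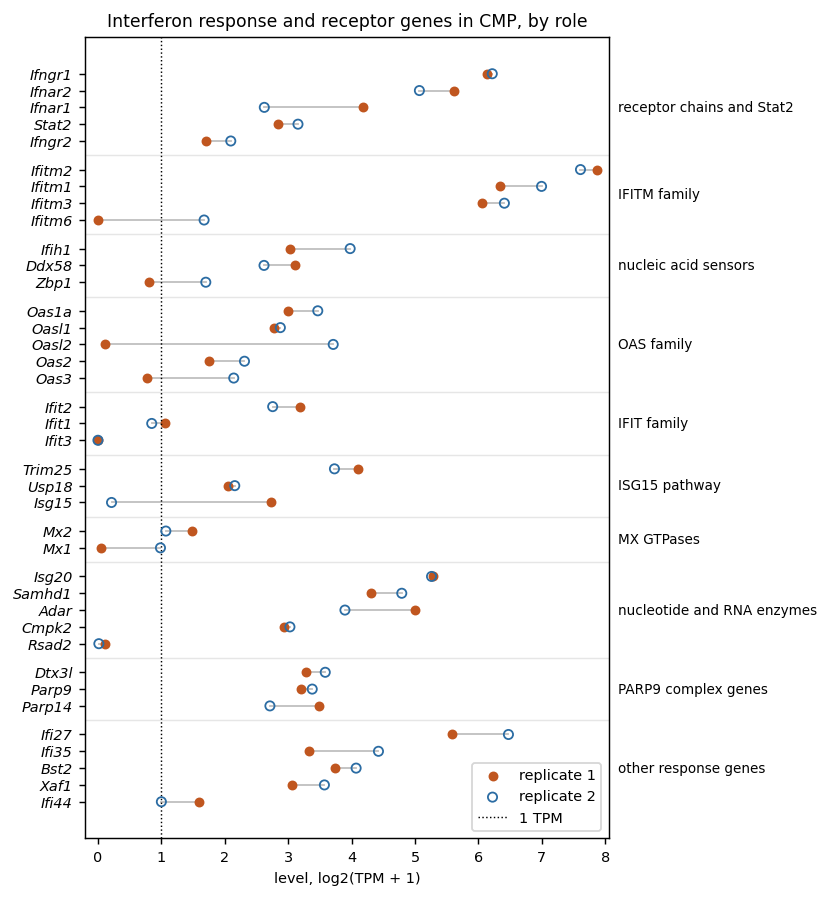
Level of each of the 38 interferon genes in each library as log2(TPM + 1), grouped by role, with replicate 1 as filled and replicate 2 as open circles and a dotted line at 1 TPM. The 3 highest IFITM genes stand at 65.7 to 233 TPM, and Oasl2, Isg15 and Ifitm6 show the widest gaps between the libraries.

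All 4 receptor chains were constitutive, and the chains of each receptor stood at unequal levels. Ifngr1, the ligand-binding chain for interferon gamma (chromosome 10, 19591949 to 19610229, GRCm38), was read at 69.4 TPM in replicate 1 and 73.4 in replicate 2. Its partner Ifngr2 (chromosome 16, 91547072 to 91565623) stood at 2.25 and 3.27 TPM. The log2 ratio of Ifngr1 over Ifngr2, on TPM plus a pseudocount of 1, was 4.44 in replicate 1 and 4.12 in replicate 2 (4.28 ± 0.22, SD, n = 2), so the gap between the chains was far wider than the spread between libraries. With 2 libraries, an exact sign-flip test cannot go below 0.5, and no p is given.

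For the type I receptor, Ifnar2 (chromosome 16, 91372783 to 91405589) was the higher chain by TPM of the gene. Ifnar2 stood at 48.2 TPM in replicate 1 and 32.6 in replicate 2. Ifnar1 (chromosome 16, 91485238 to 91507441) stood at 17.03 TPM in replicate 1 and 5.16 in replicate 2, the widest ratio between libraries among the receptor chains. The log2 ratio of Ifnar1 over Ifnar2 was -1.45 and -2.45 (-1.95 ± 0.71), so Ifnar1 was the lower chain in both by TPM of the gene. The TPM of Ifnar2 lay largely on short coding transcripts. By the authors' percent values, the one of 1099 bases took 38.7% in replicate 1 and 37.6% in replicate 2. The one of 384 bases took 34.0% and 27.7%. Ifnar2-201, of 3047 bases, stood at 13.1 and 11.3 TPM, in replicate 1 below the gene's TPM of Ifnar1. Ifnar1-201 alone, at 5.13 and 4.36 TPM, was lower than Ifnar2-201 in both. Ifngr1 exceeded Ifnar1 by log2 ratios of 1.96 and 3.59, and Ifngr2 against Ifnar2 gave -3.92 and -2.97. The genes Ifnar2, Ifnar1 and Ifngr2 lie on 1 stretch of chromosome 16 together with Il10rb, a chain of the interleukin 10 and lambda interferon receptors, which stood at 22.8 and 20.0 TPM. Ifnar2 overlaps the gene Gm21970 on the same strand, which had 0 and 61.9 counts, so reads shared between them are uncertain.

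Stat2, which carries the type I signal in a complex with IRF9, was read at 6.14 TPM in replicate 1 and 7.90 in replicate 2. Its partners and the kinases around it were all present. Of 9 signalling partners 9 were constitutive, among them Ptpn6, a phosphatase that damps cytokine signals, at 59.8 and 49.96 TPM, the kinase Jak1 at 46.8 and 43.7 TPM and Irf9 at 23.1 and 22.1 TPM. Stat2 was therefore lower than Irf9 in both libraries. Of 6 inhibitors of the signal 4 were constitutive, namely the 4 genes of the PIAS family. Pias2 stood at 12.8 and 11.3 TPM, Pias1 at 10.9 in both libraries, Pias4 at 3.84 and 16.5 TPM and Pias3 at 4.70 and 10.4 TPM. The inducible inhibitors Socs1 and Socs3 stayed under 1 TPM in both.

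No transcript of the listed interferon genes was counted. All 11 ligand genes in the list had 0 counts in both libraries: Ifnb1, Ifna1, Ifna2, Ifna4, Ifna5, Ifnk, Ifne, Ifng, Ifnl2, Ifnl3 and Ifnz. At this depth that limits each to under the floors given above, and it says nothing of ligand made by other cells of the marrow. Of 9 interferon regulatory factor genes 7 were constitutive, led by Irf3 at 25.1 and 64.1 TPM, Irf8 at 27.4 and 30.3 TPM, Irf9, and Irf2 at 18.9 and 20.8 TPM.

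The IFITM genes encode small membrane proteins that restrict the entry of viruses. They lie together on chromosome 7, from 140954837 (Ifitm2) to 141017924 (Ifitm6). Ifitm2 and Ifitm1 held the highest levels of the set in each library. Ifitm2 was read at 233 TPM in replicate 1 and 194 in replicate 2, above 99.2% and 99.0% of nuclear protein-coding genes. Ifitm1 stood at 80.2 and 126 TPM, and Ifitm3 at 65.7 and 83.9 TPM. Ifitm6 departed from its relatives, with 0 counts in replicate 1 and 17 counts (2.19 TPM) in replicate 2. The 3 constitutive members headed the 38 genes by mean level. Ifitm3, however, stood below Ifngr1 in replicate 1 (69.4 TPM) and below Ifi27 in replicate 2 (87.8 TPM). The annotation places a predicted protein-coding gene, Gm45717, over most of Ifitm2 on the same strand, which was not analysed here.

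Cytosolic sensors of viral nucleic acid were read at moderate levels. Ifih1, which encodes the sensor MDA5, stood at 7.17 TPM in replicate 1 and 14.7 in replicate 2, and Ddx58, which encodes RIG-I, at 7.62 and 5.14 TPM. Zbp1, a sensor of Z-form nucleic acid that can start necroptosis, stood at 0.75 and 2.25 TPM, from 45 and 28 counts. The TPM and the counts of Zbp1 thus point opposite ways: its effective length, the length that the authors' TPM divides by, was 2939.7 bases in replicate 1 and 608.1 in replicate 2. Of 17 measured genes in the list of sensing adaptors and kinases 13 were constitutive. The 3 genes of the RNase H2 enzyme, itself neither adaptor nor kinase, led the list. Rnaseh2a stood at 45.0 and 84.4 TPM, Rnaseh2c at 86.7 and 35.6 TPM and Rnaseh2b at 50.9 and 34.9 TPM. The DNA sensor Aim2 followed at 28.6 and 8.68 TPM.

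The OAS genes encode enzymes that make 2′-5′-linked oligoadenylate on double-stranded RNA, which activates RNase L, and related proteins without that activity. Oas1a stood at 6.97 TPM in replicate 1 and 10.1 in replicate 2, Oasl1 at 5.87 and 6.34 TPM, and Oas2 at 2.36 and 3.96 TPM. Oas3 stood at 0.70 and 3.41 TPM. Oasl2 was nearly absent from replicate 1, with 3 counts (0.08 TPM), and had 168 counts (12.1 TPM) in replicate 2. All 5 were higher in replicate 2.

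The IFIT genes encode proteins that bind foreign RNA ends, and they lie in 1 cluster on chromosome 19. Ifit2 was the only constitutive one of the 3, at 8.09 TPM in replicate 1 and 5.75 in replicate 2, with 302 and 431 counts. Ifit1 stood at 1.07 and 0.80 TPM. Ifit3 had 0 counts in both libraries, and so had its near copy Ifit3b, so no read was assigned to either copy. Neighbours in 1 cluster therefore ranged from about the set's median to 0.

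Isg15, a ubiquitin-like protein that is joined to other proteins in the interferon response, had 71 counts (5.66 TPM) in replicate 1 and 2 counts (0.16 TPM) in replicate 2. The genes that act with it had no gap of this size. Trim25, a ubiquitin ligase that can also attach ISG15, stood at 16.1 and 12.3 TPM. Usp18, the protease that removes ISG15 and also restrains IFNAR2, stood at 3.15 and 3.46 TPM. Uba7 and Ube2l6, the activating and conjugating enzymes for ISG15, stood at 87.3 and 65.8 TPM and at 13.4 and 14.8 TPM.

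Of the MX genes, GTPases that block viral replication, Mx1 had 2 and 51 counts (0.03 TPM in replicate 1 and 0.98 in replicate 2). Mx2 stood at 1.80 and 1.10 TPM, and the annotation lists it as a polymorphic pseudogene. Both lie side by side on chromosome 16 (97447035 to 97560900), and both genes are known to be defective in C57BL/6 mice.

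Rsad2, which encodes the antiviral enzyme viperin, had 6 counts in replicate 1 but 1 in replicate 2 (0.08 and 0.01 TPM; chromosome 12, 26442746 to 26456452). Cmpk2, a mitochondrial nucleotide kinase gene next to it (26469204 to 26479837), had 414 and 445 counts (6.6 and 7.15 TPM). The pair is known to be induced together by interferon, and in CMP only Cmpk2 was read at 1 TPM or more. Isg20, a 3′ to 5′ exonuclease gene, stood at 38.1 and 37.3 TPM, and Samhd1, which degrades deoxynucleotides, at 18.7 and 26.7 TPM. Adar, which turns adenosine into inosine in double-stranded RNA, stood at 31.1 and 13.9 TPM with 1610 and 1461 counts. Its effective length was 2524 bases in replicate 1 and 5139.5 in replicate 2, and the libraries were closer in counts than in TPM.

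The genes of the PARP9 complex were constitutive. Dtx3l, a ubiquitin ligase that pairs with PARP9, stood at 8.68 TPM in replicate 1 and 11.0 in replicate 2, Parp9 at 8.24 and 9.40 TPM, and Parp14, an ADP-ribosyltransferase, at 10.3 and 5.55 TPM. Parp9 and Dtx3l start from opposite strands of chromosome 16 and overlap by 682 bases (35938470 to 35939151), where their reads cannot be told apart unless strand was used, which is not stated. Among the other response genes, Ifi27 stood at 47.0 and 87.8 TPM, Ifi35 at 9.05 and 20.5 TPM, and Bst2, the virion-tethering protein, at 12.4 and 15.8 TPM. Xaf1, an antagonist of the apoptosis inhibitor XIAP, stood at 7.35 and 10.9 TPM, and Ifi44 at 2.02 and 1.00 TPM, on the threshold.

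The order of levels is loose below its top. Ranked by mean TPM, 34 of 37 neighbouring pairs had ranges over the 2 libraries that overlapped. The exceptions were Ifitm2 above Ifitm1, Isg20 above Samhd1, and Rsad2 above Ifit3. The last rests on 6 and 1 counts of Rsad2 against 0 of Ifit3, and their deposited TPM intervals overlapped in both libraries. The order of neighbours from Ifitm1 to Isg20, and from Samhd1 to Ifit3, therefore cannot be read from these libraries.

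A wider list of 36 interferon-stimulated genes, of which 35 were measured, was read in the same way. Of these, 30 were constitutive. The median over all 35 was 22.3 TPM in replicate 1 and 19.9 in replicate 2. B2m, the light chain of class I major histocompatibility molecules, stood at 739 and 735 TPM, Ly6e at 426 and 427 TPM, the galectin gene Lgals9 at 229 and 219 TPM and Uba7 as above. Ifi204, Iigp1 and Phf11d had 0 counts in both libraries. Silent genes thus occurred in the wider list too, beside genes above any of the 38.

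The libraries were then set against each other to learn how far each value can be trusted. A two-sided exact binomial test on the expected counts, scaled by TMM (edgeR's trimmed mean of M values) and adjusted over all genes that reached 10 counts in either library, covers counting error alone and compares these 2 pools. Of the 38 genes 36 were tested, all but Ifit3 and Rsad2, and 28 (77.8%) differed at an adjusted p under 0.05, 10 higher in replicate 1 and 18 higher in replicate 2. Over all 13616 genes tested 78.2% differed, 37.5% higher in replicate 1 and 40.7% higher in replicate 2. Scaling by total counts shifted the median log2 ratio of all genes to -0.229, against -0.028 with TMM, and split the calls over all genes into 26.7% and 52.6%. The share among the interferon genes was near this background, 77.8% against 78.2%, so it says nothing particular about them. The deposited intervals of TPM did not overlap between the libraries for 25 of the 36 genes (69.4%), against 63.2% of all genes, an alternative chosen after seeing the data. The median absolute log2 ratio was 0.469 for the 36 genes and 0.514 for all genes. Of the 36 genes, 7 (19.4%) differed by over 2-fold, against 30.2% of all genes. The edgeR test given next took its dispersion from the same 2 libraries that it compared. It could be foreseen to call few or no genes, and no conclusion is drawn from it. When the spread between the libraries was allowed for with edgeR's exact test at a common dispersion of 0.576, 0 of the 36 genes and 0 of the 13616 passed, with 4 and 1541 at an unadjusted p under 0.05.

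**Figure D3:**
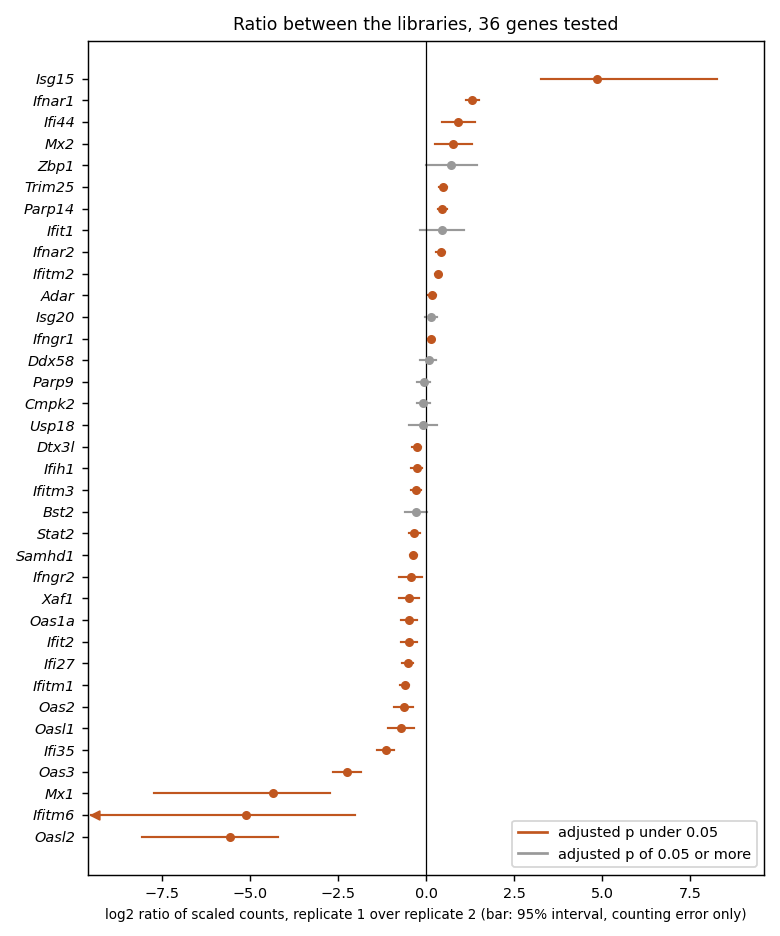
Log2 ratio of scaled counts, replicate 1 over replicate 2, for the 36 interferon genes tested, with the exact 95% interval for counting error as a bar and an arrow where the interval has no lower end. Isg15 stands at 4.86 on the right and Oasl2, Ifitm6, Mx1 and Oas3 at -5.56 to -2.24 on the left, while most genes lie within 1 of 0.

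The wide gaps sat in a few genes with low counts in 1 pool. Oasl2, with 3 and 168 counts, had a log2 ratio of replicate 1 over replicate 2 of -5.56 (95% interval -8.07 to -4.21, adjusted p = 3.37e-44 in the exact binomial test). Isg15, with 71 and 2 counts, had 4.86 (3.27 to 8.25, adjusted p = 1.00e-18 in the same exact test). Mx1, with 2 and 51 counts, had -4.34 (-7.73 to -2.72). Ifitm6, with 0 and 17 counts, was at least 5.56-fold higher in replicate 2 (floor of 3 counts per library). These genes therefore moved opposite ways between the pools, with Isg15 high where Oasl2, Mx1 and Ifitm6 were at or near 0. Oas3, with 66 and 319 counts, had -2.24 (-2.65 to -1.86), Ifnar1, with 900 and 369 counts, had 1.31 (1.14 to 1.49), and Ifi35, with 201 and 454 counts, had -1.15 (-1.40 to -0.91).

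**Figure D4:**
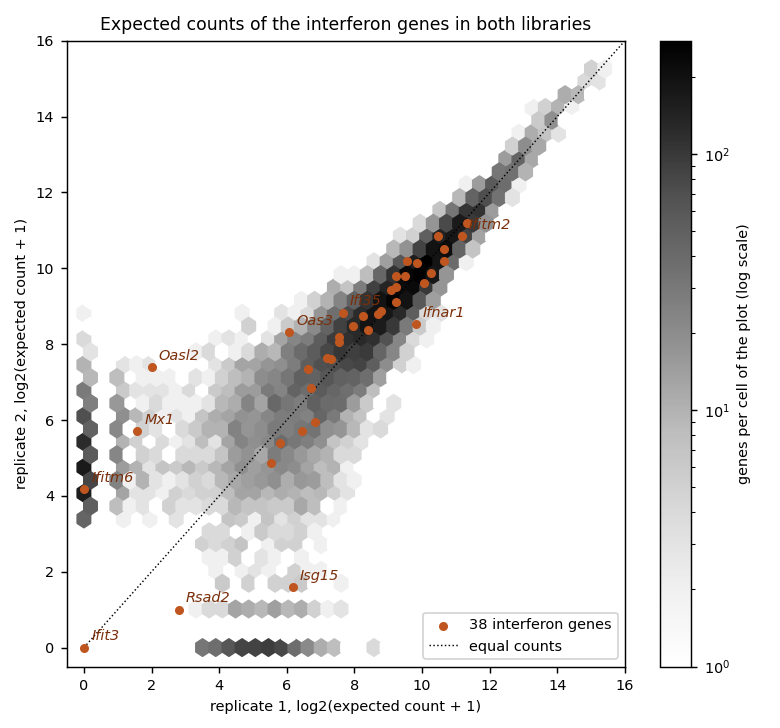
Expected counts of all genes that reached 10 counts in either library as log2(count + 1) in replicate 1 (horizontal) and replicate 2 (vertical), in grey by number of genes, with the 38 interferon genes in orange. Most interferon genes lie in the dense band along the line of equal counts, Oasl2, Mx1 and Ifitm6 lie far above it and Isg15 far below, where many other genes lie too.

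By role, only the OAS genes of this set were higher in replicate 2 in every member, 5 of 5, against the background of 40.7% of all genes. The difference from other roles was not tested. Of their relatives outside the set, Oas1b (251 and 32 counts) and Oas1c (96 and 62) were higher in replicate 1, and Oas1g (0 and 1.85) in replicate 2. The receptor chains and Stat2 split into 3 higher in replicate 1 (Ifnar1, Ifnar2 and Ifngr1, of which Ifngr1 turned to -0.06 under total-count scaling) and 2 higher in replicate 2 (Ifngr2 and Stat2). The IFITM genes split into 1 (Ifitm2) and 3. Of the wider pathway lists, 10 of the other interferon-stimulated genes were higher in replicate 1 and 13 in replicate 2 of 32 tested, and of 9 interferon regulatory factor genes 3 and 4. The signalling partners gave 4 and 2 of 9 tested, the list of sensing adaptors and kinases 7 and 5 of 17, and the inhibitors of the signal 1 and 3 of 6. Ddx58, Parp9, Cmpk2, Usp18, Isg20, Bst2, Ifit1 and Zbp1 did not pass the test with TMM scaling.

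Marker genes of other cells also differed between the pools, as did 78.2% of all genes tested, 37.5% higher in replicate 1 and 40.7% in replicate 2. The counts of differing markers below are therefore not read as particular to them. Of 10 monocyte, macrophage and dendritic cell genes 4 were read in both libraries, with summed levels of 49.8 TPM in replicate 1 and 59.7 in replicate 2. Of 7 tested, 3 were higher in replicate 1 and 3 in replicate 2. Among its 4 highest, H2-Aa had 1 and 297 counts, Ly6c2 398 and 206, Csf1r 840 and 378 and H2-Ab1 144 and 137. Of the rest, Ccr2 had 198 and 586 counts, Cd74 1 and 161, Cx3cr1 67 and 0 and Adgre1 1 and 0. Cd14 and Itgax had 0 counts in both. Of 8 plasmacytoid dendritic cell genes, the cells best known for releasing type I interferon, Siglech, Klk1, Cox6a2 and Pacsin1 had 0 counts in both libraries, and the list summed to 58.2 and 64.0 TPM, nearly all from Irf8, Tcf4 and Bst2. Of 8 T and NK cell genes 0 were read in both, with sums of 0.20 and 3.81 TPM, and of 7 B cell genes 1, with sums of 12.8 and 12.4 TPM, in which Vpreb1 had 66 and 1 counts and Cd79b 164 and 258. Of 8 mature neutrophil genes 3 were read in both, with sums of 8.42 and 7.31 TPM, and of 8 erythroid genes 5, with sums of 95.1 and 97.4 TPM. Of 7 erythroid genes tested, 3 were higher in replicate 1 and 3 in replicate 2, with Hba-a2 at 28.3 and 444.8 counts and Hbb-bs at 245 and 22.2. Of 10 stem cell and multipotent progenitor genes 6 were read in both, with sums of 109.9 and 115.1 TPM, led by Meis1 at 45.1 and 55.0 TPM. Of 10 CMP gate and progenitor genes 7 were read in both, with sums of 878.9 and 908.2 TPM, led by Mpo at 385.9 and 386.1 TPM, Myb at 208.5 and 218.9, Kit at 98.1 and 93.0 and Gata2 at 54.8 and 88.4. Of 8 tested in this list, Cd34 (74.5 and 55.4 TPM) was higher in replicate 1, and Fcgr2b, Fcgr3, Gata2, Mpo and Myb were higher in replicate 2. Fcgr2b had 91.8 and 225.5 counts, Fcgr3 had 15.2 and 99.5, and Ly6a and Il7r had 0 in both. The part of these markers in the differences of the interferon genes was not tested.

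Many interferon genes were read as more than 1 transcript, and the estimated mix differed between the pools. The leading transcript, the one with most counts over both libraries, was compared in 24 of the 38 genes, those with at least 2 transcripts and 50 counts in both libraries. Its share of the gene's counts differed in 17 of them (70.8%) by Fisher's exact test with an adjusted p under 0.05, against 77.7% of 7354 genes, again near the background. That test takes estimated counts as observed reads, so its p leaves out the error of assigning reads between transcripts. The transcript that led was another one in each library for 6 of the 24 genes (25%), against 29.7% of all genes.

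**Figure D5:**
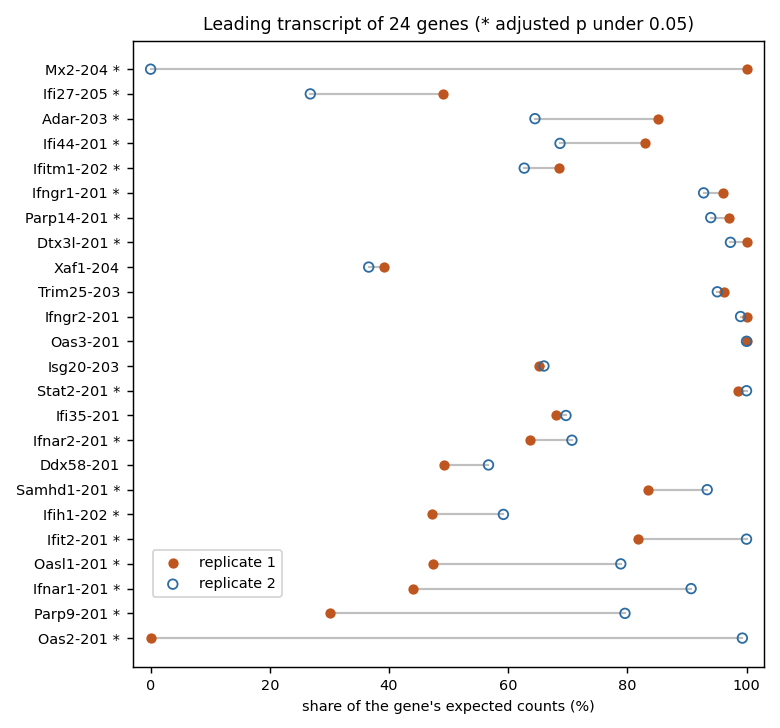
Share of the gene's expected counts (percent) held by the leading transcript of 24 interferon genes, replicate 1 as filled and replicate 2 as open circles, with a star where Fisher's exact test passed. Oas2-201 and Mx2-204 switch between 0 and nearly all counts, while Oas3-201, Ifngr2-201 and Isg20-203 stay within 1 percentage point.

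The largest shifts were whole switches in the estimated counts. Oas2-201 held 0% of the counts of Oas2 in replicate 1 and 99.3% in replicate 2. Mx2-204 held 100% and 0%. Parp9-201 held 30.1% and 79.6%, and Ifnar1-201 44.1% and 90.7% (adjusted p = 6.49e-59, Fisher's exact test), so the lower count of Ifnar1 in replicate 2 came with another transcript mix. Its leading transcript alone had 397 and 335 counts, and by the authors' own percent values it took 30.1% and 84.4% of the TPM of the gene. The coding transcript that held all counts of Oas2 in replicate 1 is 3961 bases long, against 3869 for Oas2-201, and assignment between such like transcripts is uncertain. Adar-203 held 85.2% and 64.5% of the counts of Adar, while the short retained-intron transcript Adar-208 held 7.98% and 1.12% of the counts and 35.8% and 10.5% of the TPM. Ifngr1-201 held 96.0% and 92.8% of the counts, Stat2-201 98.5% and 100%, and Dtx3l-201 100% and 97.3%. By counts these genes were thus read as nearly 1 transcript. Of the TPM, by the authors' percent values, Ifngr1-201 took 87.3% and 74.6%, Stat2-201 98.5% and 100%, and Dtx3l-201 100% and 94.6%. Transcripts annotated as retained introns or processed transcripts, which have no annotated protein, took a median share of 4.71% in replicate 1 and 8.81% in replicate 2 over 17 interferon genes that have them, against 9.02% and 8.15% over 5588 protein-coding genes. They took 50.8% and 43.3% of the counts of Ddx58, 52.6% and 21.1% of Oasl1, 35.2% and 36.1% of Xaf1 and 33.9% and 53.7% of Ifi27. These were the 4 of 17 genes (23.5%) with over 20% in both libraries, against 21.4% of the 5588 genes, which is near the background. For these 4 genes the TPM of the gene exceeds that of its coding transcripts.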

How the data were processed

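Total RNA-seq of 2 CMP libraries was used. Per the file headers and the notes deposited with them, the authors aligned reads to the mm10 transcriptome with GENCODE M4 and gave gene and transcript tables. The deposited expected counts are estimates that divide reads shared between entries, and the deposited TPM values divide counts by effective length and sum to 1000000 over all entries. The deposited percent values, each transcript's share of its gene's TPM, are quoted as the authors' own. The quantifier, its version and the use of strand are not stated in the sources used here, nor is the level of the TPM intervals. Symbols came from GENCODE M21 for 42462 of 43346 genes.

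Here the expected counts were rounded and tested with an exact binomial test (scipy 1.17.1) after TMM scaling in edgeR 4.0.16 under R 4.3.3, for genes that reached 10 counts in either library, and Benjamini-Hochberg adjusted over all of them at 0.05. Genes annotated as ribosomal RNA were left out of scaling and test. Entries naming no mouse gene held 0.0255% and 0.0185% of the counts, and Gm42418 alone held 38.1% and 33.0%. Shares of leading transcripts were set against each other with Fisher's exact test. Both tests were run on simulated data first. Detection was 1 TPM, a pseudocount of 1 was used in log ratios between genes, and n is 2. A quasi-likelihood fit needs replicates on each side and was not used. DESeq2 1.42.0 gave alternative size factors. The genes named are all 38, of each pathway list up to 4 highest and those at 0 counts, and of each cell type list up to 4 highest; Cd34, Socs1, Socs3, Ube2l6, Il10rb, cell type genes at 0 counts and related copies were chosen after their values were seen. Fcgr2b, Fcgr3, Ccr2, Cd74, Cx3cr1 and Adgre1 were too. Mb21d1 and Mnda were not matched, and 1 gene under this rule is not reported here. The 38 genes and all lists were chosen with earlier results of these data known.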

Additional observations from a re-analysis of the deposited data

How the results depend on the processing

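The count of 29 constitutive genes became 32 at 0.5 TPM, 27 at 2 TPM, 29 with posterior mean TPM, 32 with TPM rescaled over nuclear protein-coding genes, and 31 to 33 in a single library. The median level of the 38 genes, 7.39 TPM as the mean of both libraries, was 7.18 with posterior means, 19.2 after rescaling, since protein-coding genes hold 37.8% and 39.3% of all TPM, and 7.26 to 7.53 TPM in a single library. The log2 ratio of Ifngr1 over Ifngr2 was 4.67 at a pseudocount of 0.1, and 4.12 to 4.44 in a single library; the other chain ratios kept their sign, with Ifnar1 over Ifnar2 at -2.45 to -1.45, Ifngr1 over Ifnar1 at 1.96 to 3.59 and Ifngr2 over Ifnar2 at -3.92 to -2.97.

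With edgeR's exact test at the common dispersion, 0 interferon genes and 0 of all genes differed between the libraries, against 28 and 10647, with 4 and 1541 at an unadjusted p under 0.05. That dispersion was estimated from the same 2 libraries, so few or no calls could be foreseen and no conclusion is drawn. Total-count scaling moved the median log2 ratio of all genes to -0.229, against -0.028. The calls over all genes went to 3632 higher in replicate 1 and 7158 in replicate 2, against 5106 and 5541. For the interferon genes this scaling gave 8 and 21, against 10 and 18. Under it 4 small ratios changed sign and none passed the test: Ifngr1 to -0.06, Ddx58 to -0.14, Isg20 to -0.06 and Adar to -0.03. Under the same scaling Cmpk2, Parp9 and Bst2 passed the exact binomial test as higher in replicate 2, with adjusted p of 0.00700, 0.00603 and 0.00236. The 5 OAS genes stayed higher in replicate 2 under each scaling. DESeq2 size factors changed no call among the 36. The alternatives chosen after seeing the data gave 25 interferon genes (69.4%) with deposited TPM intervals apart, against 63.2% of all genes, and 23 differing of the 29 that were constitutive (79.3%), against 74.2% of all genes under the same filter. A looser core, ending in GAA in place of GAAA, lay in the windows of 15 of 30 genes, against 9.76% of all genes with a window. Leaving out a library ends the tests between libraries. No paired analysis was possible because the series has 1 group.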

Other observations

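Genes related to the 38 were read as well, and their counts are given without a test. Oas1b, a relative of Oas1a on chromosome 5 that is known to be truncated in C57BL/6 mice, had 251 counts in replicate 1 and 32 in replicate 2, opposite to the 5 OAS genes above. Oas1c had 96 and 62 counts, also opposite to those 5 genes. Oas1d, Oas1e, Oas1f and Oas1h had 0 counts in both libraries, and Oas1g had 0 and 1.85. Next to Ifi27 on chromosome 12, Ifi27l2a had 2 and 71 counts and Ifi27l2b 0 in both. Of the other IFITM genes, Ifitm5 had 0 and 16 counts, Ifitm7 0 and 19, and Ifitm10 1 and 9.

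TPM and scaled counts pointed opposite ways between the libraries for 3 of the 36 genes tested (8.33%), Ifit2, Ifngr1 and Zbp1, against 10.5% of all genes. For Ifit2 the effective length was 1816 bases in replicate 1 and 3656 in replicate 2, with 8.09 and 5.75 TPM from 302 and 431 counts. A reader who takes TPM alone and one who takes counts alone would give these 3 genes different directions.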
